A study of Mus musculus with 6 samples.

Results

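The genes followed here are the epidermal growth factor (EGF) receptor family, its ligands and the receptor's feedback inhibitor Errfi1, in the mouse uterus after a single dose of estradiol. They were chosen by gene symbol, from a list of 9: Errfi1, the receptors Egfr, Erbb2 and Erbb3, and the ligands Areg, Ereg, Hbegf, Tgfa and Egf. Of these, 7 genes had a probe set named for them alone in the array annotation used here, 13 probe sets in all, out of 8251 genes and 12422 probe sets. Erbb2 and Areg had none and were not analysed here. Tissue came from female C57BL/6 mice 10 to 11 weeks old, all of which had been ovariectomised 7 days before they were killed and had received 1 injection under the skin. The vehicle group was killed 24 h after an injection without hormone. The other groups received 0.05 µg of estradiol (E2) per mouse and were killed 1, 3, 6, 12 or 24 h later. Uteri were pooled before RNA extraction, each group was read on 1 Affymetrix U74Av2 array, and the labels mention 10 mice without saying how many entered each pool.

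The EGF receptor is a tyrosine kinase of the cell surface. Its ligands are made as membrane-anchored precursors and are released by metalloproteases, after which they bind Egfr and bring it together with itself or with its relatives Erbb2 and Erbb3. The signal then runs through adaptor proteins to the Ras-MAP kinase and PI3 kinase branches and to immediate early genes, and is damped by inhibitors such as Errfi1, which binds the receptor's kinase domain. In the rodent uterus this system is known for its part in the growth response of the epithelium to estrogen and, through Hbegf, in the attachment of the embryo.

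With a single array per group there is no replicate error, and no difference was tested. Each value below describes 1 pool of RNA, and fewer cells of a type and less RNA per cell cannot be told apart in whole tissue. Only the 24 h comparison is matched to vehicle in time since injection, so at the other times an effect of the injection cannot be told apart from one of the hormone. Signal is the authors' MAS5 intensity, rescaled to a common trimmed mean. Values under 142.8, the 40th percentile of all values, were treated as too dim to rank and were raised to that floor before log2 was taken, and a minimum of 2-fold was used to count genes. The vehicle, 1, 6, 12 and 24 h arrays had pairwise rank correlations (Spearman's rho) of 0.929 to 0.968 over all probe sets, a description of shared probes and not of replicates.

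The array labelled 3 h stood apart from these 5, at rho of 0.843 to 0.857, and is shown apart throughout. On it, 4 of 13 uterine epithelium markers reached the floor, against 13 of 13 on each of the other arrays, and the keratin genes Krt8, Krt18 and Krt19 read 106.8, 64.9 and 5.2 against 2193, 2285 and 2198 in vehicle. Of the 13, 11 were at least 2-fold lower than vehicle and 1 was higher, the lactoferrin gene Ltf, at 11157 against 2689. The 8 smooth muscle markers summed to 7322 signal units, against 40529 to 68871 on the other 5 arrays. The 8 skeletal muscle markers summed to 61191 against 584 to 2936, and the 3 blood markers to 33692 against 1878 to 3467. The 9 macrophage and leukocyte markers summed to 18520 against 3608 to 6385. Of the 8 of them that could be counted, 6 were at least 2-fold higher than vehicle and 0 lower. Most epithelium markers were thus under the floor on this array. The floor was reached by 7 of 8 smooth muscle markers and 8 of 13 stromal fibroblast markers, but many of these were also below vehicle. Of the smooth muscle markers, 7 were at least 2-fold lower and 0 higher (median log2 ratio -2.85). Of the stromal fibroblast markers, 7 were lower and 2 higher (median -1.14). Among the lower ones, Hoxa10 and Hoxa11 read 2.2 and 14.6, against 368.4 and 2662 in vehicle. What sets the array apart was not tested. As a check of the hormone response, the progesterone receptor gene Pgr, a classic estrogen target, read 159.8 in vehicle, 285.1 after 1 h, 869.9 after 6 h, 602.1 after 12 h and 281.2 after 24 h. On the 1, 6, 12 and 24 h arrays, the other genes of this check stayed under 2-fold by the probe sets brightest over all arrays. These were the estrogen receptor gene Esr1 (527.3 in vehicle and 457.1 to 582.1 afterwards), the growth factor gene Igf1 (log2 ratios of 0.25 to 0.65) and Ltf (-0.93 to 0.35). The second Igf1 probe set, however, read 337.0 in vehicle, 3392 at 6 h and 3098 at 12 h (log2 ratios 3.33 and 3.20). At 6 h and 12 h it was brighter than the first, which read 1931 and 1483. On the array labelled 3 h, Esr1 read 25.2 and Pgr 33.6, both under the floor. The first Igf1 probe set read 917.9 there.

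**Figure D1:**
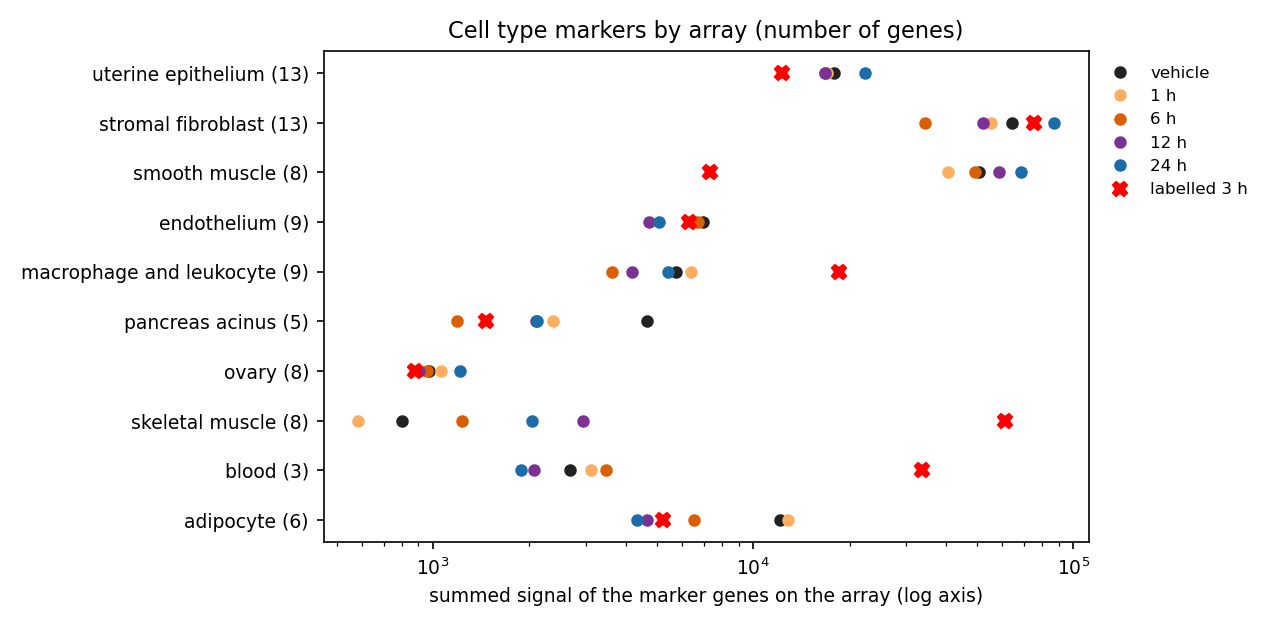
Summed signal of marker genes for 10 tissues or cell types (vertical axis, number of genes on the array in brackets) on each of the 6 arrays (horizontal axis, signal units, log scale). Each point is 1 array. The array labelled 3 h (red cross) lies at 7322 for smooth muscle and 61191 for skeletal muscle, outside the range of the other 5 arrays for both.

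Errfi1 was the one gene of the group at least 2-fold higher than vehicle at 1 h. It encodes Mig6, a cytoplasmic protein that blocks the kinase of the EGF receptor and so closes a feedback loop. Its brighter probe set, 93975_at, read 856.5 in vehicle, 3724 after 1 h, 2291 after 6 h, 867.5 after 12 h and 828.7 after 24 h. The other probe set, 93974_at, read 805.4, 3044, 1961, 789.9 and 491.2 on the same arrays. Both probe sets were highest on the 1 h array, lower at 6 h but still above vehicle, and near vehicle at 12 h.

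Against vehicle, Errfi1 was 4.35-fold higher at 1 h by 93975_at (log2 ratio 2.12) and 3.78-fold higher by 93974_at (1.92). That ratio ranked 7 from the top among 6331 genes measured on at least 1 of the 5 arrays. At 6 h the folds were 2.68 and 2.43 (log2 ratios 1.42 and 1.28), and Errfi1 ranked 180 from the top. From 6 h to 12 h the signal was lower by 2.64-fold and 2.48-fold. At 12 h both probe sets were within 1.02-fold of vehicle. At 24 h they parted: 93975_at had a log2 ratio of -0.05, while 93974_at had one of -0.71, which is 1.64-fold lower. The difference between the probe sets at 24 h is larger than at any earlier time, and with 1 array its error is unknown.

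RefSeq lists 2 transcription starts for Errfi1 on chromosome 4, and the 250 bases before each (GRCm38.p6, plus strand) are printed because this gene had the largest ratio to vehicle of the group. Capitals mark every match to the motifs searched.
Errfi1, chr4:150853546-150853795: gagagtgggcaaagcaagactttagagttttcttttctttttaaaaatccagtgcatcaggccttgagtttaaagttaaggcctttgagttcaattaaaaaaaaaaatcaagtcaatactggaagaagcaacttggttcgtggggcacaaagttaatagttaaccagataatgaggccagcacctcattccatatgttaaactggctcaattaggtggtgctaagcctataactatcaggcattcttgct
Errfi1, chr4:150854820-150855069: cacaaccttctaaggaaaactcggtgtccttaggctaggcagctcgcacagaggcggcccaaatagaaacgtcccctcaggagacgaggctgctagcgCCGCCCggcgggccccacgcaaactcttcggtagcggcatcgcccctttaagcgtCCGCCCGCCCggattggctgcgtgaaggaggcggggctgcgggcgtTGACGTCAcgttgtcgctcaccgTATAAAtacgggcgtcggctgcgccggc

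The motifs were the cAMP response element TGACGTCA, the AP-1 element TGANTCA, the full estrogen response element, a single arm of it (GGTCA), the TATA box TATAAA, the GC box GGGCGG and the CArG box of serum response genes, on both strands. Every full estrogen response element also contains the arm. The window before the outer start, with a G and C content of 38.0%, held none of them. The window before the inner start, at 64.8%, held a cAMP response element 51 to 44 bases before the start, a TATA box 28 to 23 bases before it, and 3 GC boxes, read on the opposite strand, 2 of which overlap. Among 32851 windows of the same length, 1.55% held the cAMP response element, 12.4% the TATA box, 32.7% a GC box, 6.75% the AP-1 element, 35.2% the estrogen response element arm, 1.47% the CArG box and 0.0639% the full estrogen response element. These are letter matches in short windows, and the arrays carry no information on which start was used. Of the 9 genes, 6 have an entry in this promoter table. The window of Areg, which was not measured, held 1 cAMP response element, 1 TATA box and 1 GC box. The window of Egfr held 2 estrogen response element arms and 1 GC box, that of Tgfa held 2 GC boxes, and those of Erbb2 and Egf held none of the motifs.

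Among the receptors, Erbb3 was lower at 6 h and 12 h and 1.18-fold above vehicle at 24 h, while Egfr stayed within 1.38-fold of vehicle. Erbb3 binds neuregulins, has little kinase activity of its own and signals through a partner receptor. Its probe set 96771_at read 1013 in vehicle, 966.8 after 1 h, 339.2 after 6 h, 539.3 after 12 h and 1200 after 24 h. The 6 h array was the lowest and the 24 h array the highest. Against vehicle, Erbb3 had log2 ratios of -0.07 on the 1 h array, -1.58 on the 6 h array, -0.91 on the 12 h array and 0.25 on the 24 h array, so that it was 2.99-fold lower at 6 h and 1.88-fold lower at 12 h. At 6 h it ranked 148 from the bottom of 6331 genes and at 12 h 551. From 12 h to 24 h it was higher by 2.23-fold.

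The second Erbb3 probe set, 101776_at, lay under the floor on every array, at 23.6, 28.4, 7.4, 13.6 and 20.1 from vehicle through 24 h, and gives no fold. Its lowest value of these 5 was also on the 6 h array, which at this brightness carries no weight. With the median of both probe sets in place of the brightest, Erbb3 was under 2-fold at 6 h, because the dim one enters with a ratio of 0.

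Erbb3 is known chiefly from epithelia, so epithelial markers are given beside it. The 13 uterine epithelium markers summed to 17923 signal units in vehicle, 16747 at 6 h, 16705 at 12 h and 22427 at 24 h, and their median log2 ratio was -0.09 at 6 h and 0.21 at 12 h. At 6 h, 2 of them were at least 2-fold higher, Krt7 (log2 ratio 1.79) and Cldn7 (1.02), and 1 was lower, the protease inhibitor gene Spint1 (-1.08). At 12 h, 2 were higher (Krt7 and Cldn7) and 2 lower (Spint1 and Msx1). The summed signal of these markers was close to vehicle at 6 h and 12 h, but it mixes markers that moved in opposite directions. Krt18 had log2 ratios of -0.86 and -0.98 at these times, where Krt7 had 1.79 and 1.485. The stromal fibroblast markers summed to 64378 in vehicle, 34516 at 6 h, 52216 at 12 h and 87006 at 24 h, lowest on the same array as Erbb3. The pancreas acinus markers (1187 at 6 h, 4661 in vehicle) and the macrophage and leukocyte markers (3608 and 5746) were also lowest on that array of the series. The other marker lists had their lowest sum on other arrays, though the adipocyte sum was 6552 at 6 h against 12129 in vehicle. The part of these cells in the Erbb3 values was not tested.

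Egfr, the receptor of EGF itself, was read by 3 probe sets. The brightest, 101842_g_at, read 317.0 in vehicle, 373.6 after 1 h, 285.9 after 6 h, 283.6 after 12 h and 288.1 after 24 h. The next, 101840_at, read 252.1, 183.2, 190.9, 200.6 and 205.0. At 1 h these probe sets lay on opposite sides of vehicle, at log2 ratios of 0.24 and -0.46, and both were slightly below vehicle later, at -0.16 to -0.14 and -0.40 to -0.30. The third, 101841_at, was designed on the same source sequence as the brightest, stayed under the floor at 16.5 to 54.6, and gives no fold.

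Of the ligands, only Hbegf reached the floor on all 5 arrays. Hbegf, the heparin-binding ligand, read 523.6 in vehicle, 522.6 after 1 h, 488.0 after 6 h, 474.2 after 12 h and 368.5 after 24 h by its single probe set 92730_at. The first 4 values lie within 1.10-fold of vehicle, and the 24 h array was the lowest, 1.42-fold below it (log2 ratio -0.51). At 24 h, 16.3% of the genes had a lower ratio than Hbegf. Tgfa, transforming growth factor alpha, read 132.5, 117.2, 134.1, 93.6 and 148.3 from vehicle through 24 h, so that it reached the floor on the 24 h array alone, 1.04-fold above it.

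The other ligands lay under the floor on all 5 arrays. Egf read 16.9 to 25.8 by 102774_at and 7.3 to 56.5 by 161460_r_at. Ereg, which encodes epiregulin, read 3.4 to 12.1 by 98802_at and 0.6 to 6.6 by 161158_f_at. No fold is given for these genes, and a signal under the floor does not show that the transcript is absent.

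**Figure D2:**
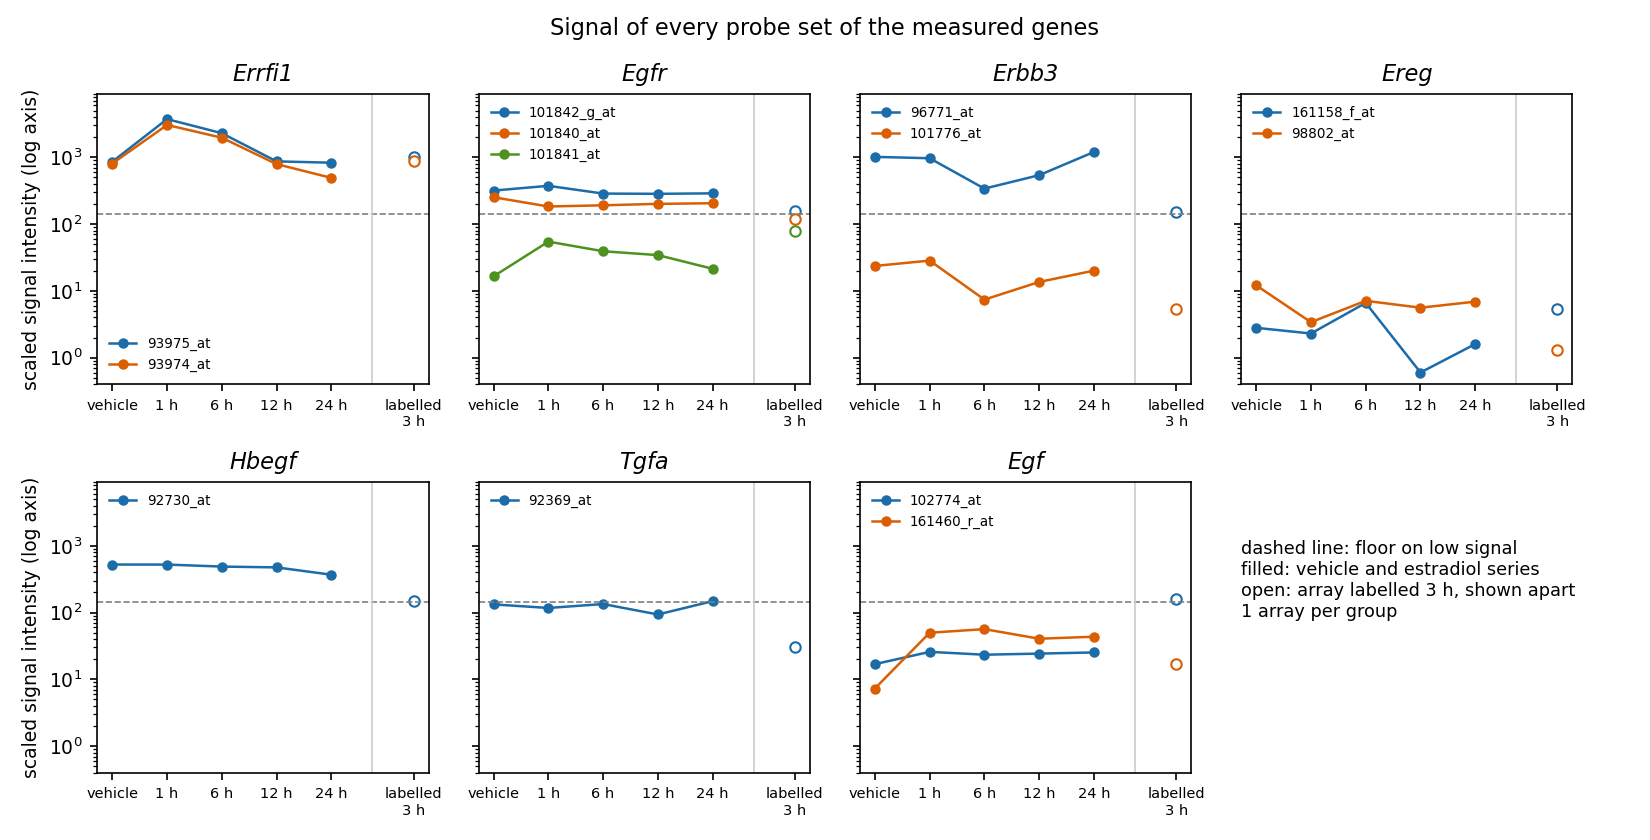
Scaled signal (vertical axis, log scale) of the 13 probe sets of 7 genes on the vehicle array and 1, 6, 12 and 24 h after estradiol (horizontal axis), with 1 array per point and the array labelled 3 h as open circles. Errfi1 is highest at 1 h on both probe sets (3724 and 3044), Erbb3 lowest at 6 h (339.2), and both Ereg and both Egf probe sets stay under the dashed floor of 142.8 on the 5 arrays of the series.

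Of the 7 genes, 5 reached the floor on at least 1 of the 5 arrays (Errfi1, Egfr, Erbb3, Hbegf and Tgfa), Tgfa through the 24 h array alone. At 1 h, 1 of the 5 was at least 2-fold higher (Errfi1) and 0 lower, where 0.885% of all 6331 genes were higher and 0.363% lower. At 6 h, 1 was higher (Errfi1) and 1 lower (Erbb3), against 6.57% and 8.66% of all genes. At 12 h, none was at 2-fold in either direction, against 6.38% higher and 7.19% lower, and at 24 h none, against 3.54% higher and 3.66% lower. With 5 genes and no replicates, 0 called of 5 cannot be set apart from these shares. No test was possible, so there is no count at an unadjusted p.

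**Figure D3:**
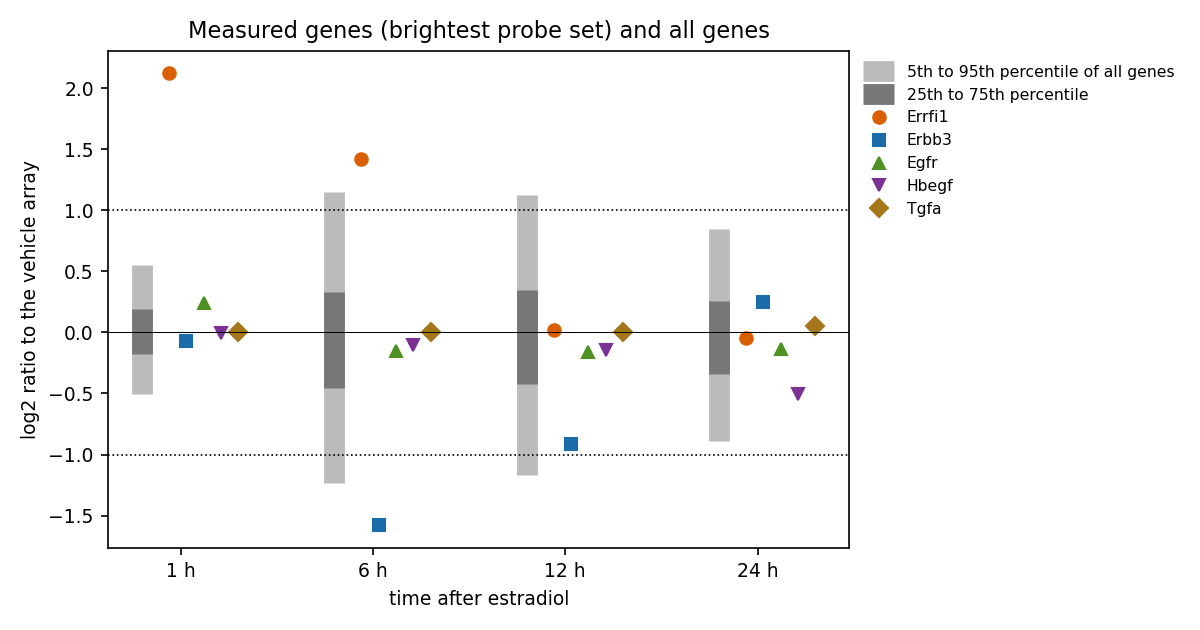
Log2 ratio to vehicle (vertical axis) of the 5 genes that reached the floor, each by its brightest probe set, at 4 times after estradiol (horizontal axis), beside grey bars for the spread of 6331 genes. Dotted lines mark 2-fold. Errfi1 lies at 2.12 at 1 h and 1.42 at 6 h, above the 95th percentile bar at both, and Erbb3 at -1.58 at 6 h, below the 5th.

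For the genes at 2-fold, the 3 genes with the smallest root mean square difference in the 4 log2 ratios to vehicle were found among the other 5069 genes that reached the floor on all 5 arrays. For Errfi1 these were Rasd1, a Ras-related gene induced by steroids (difference 0.17), Cebpb, a transcription factor gene of the decidual response (0.37), and Fos, an AP-1 subunit (0.44). Rasd1 read 254.4 in vehicle, 1068 after 1 h, 544.4 after 6 h, 255.4 after 12 h and 231.7 after 24 h, with the highest array at 1 h and the return at 12 h that Errfi1 showed. Fos was still 1.51-fold above vehicle at 12 h and had a log2 ratio of -0.68 at 24 h, where that of Errfi1 was -0.05. Cebpb had log2 ratios of 1.48 at 1 h and 1.24 at 6 h, a smaller step between these times.

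For Erbb3 the nearest genes were Ift46, a gene of ciliary transport (0.15), Grb7 (0.17) and Csrp2, which encodes a LIM domain protein (0.18). Grb7 is an adaptor whose protein binds activated ErbB receptors. It read 1523 in vehicle, 1674 after 1 h, 537.1 after 6 h, 900.5 after 12 h and 1572 after 24 h, and so was lowest at 6 h and within 1.10-fold of vehicle at 1 h and 24 h. In the RefSeq gene order of chromosome 11, Grb7 lies 2 protein-coding genes from Erbb2, which was not measured. Ift46 read 754.5, 671.5, 276.4, 389.9 and 758.3 on the 5 arrays. The likeness was measured over 4 ratios that share the vehicle array.

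**Figure D4:**
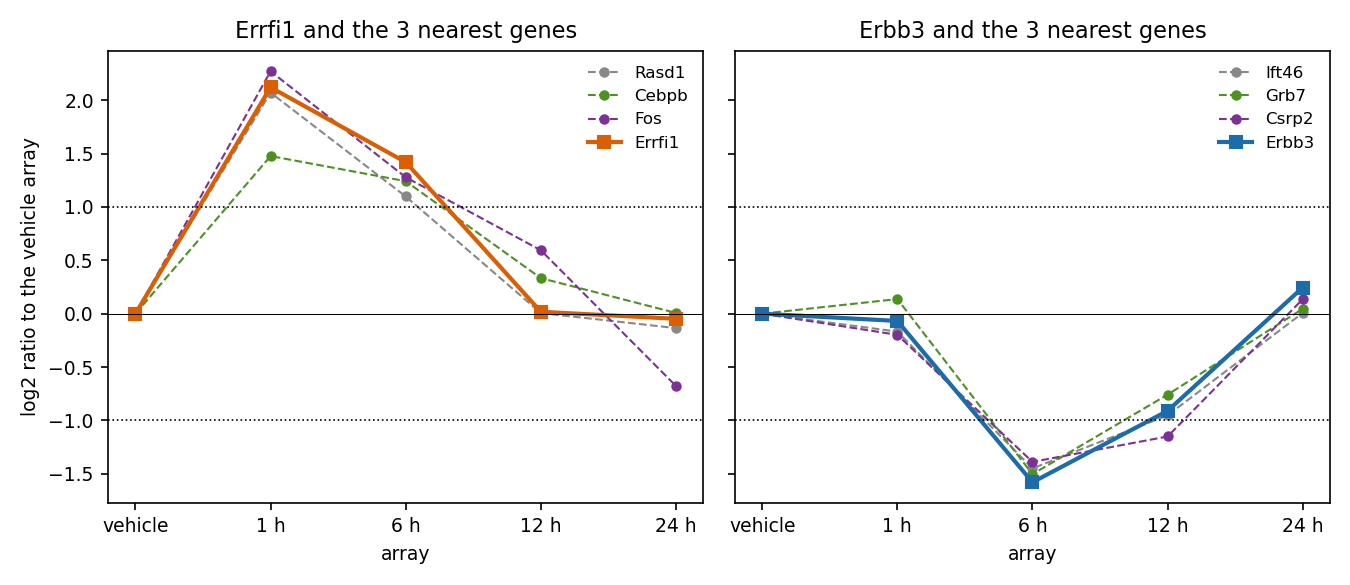
Log2 ratio to the vehicle array (vertical axis) across the 5 arrays (horizontal axis) for Errfi1 with Rasd1, Cebpb and Fos, and for Erbb3 with Ift46, Grb7 and Csrp2, 1 array per point. The Errfi1 group peaks at 1 h, at 1.48 to 2.27, and the Erbb3 group is lowest at 6 h, at -1.58 to -1.39. The genes were selected for this likeness.

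The rest of the pathway was read through lists of 101 genes, of which 76 were on the array and 63 reached the floor on at least 1 of the 5 arrays. At 1 h, 5 of the 63 were at least 2-fold higher and 0 lower, which is 7.94% higher against 0.885% of all genes, with a median log2 ratio of 0.12 against 0.00. At 6 h, 6 were higher and 6 lower (9.52% each, against 6.57% and 8.66%), with a median of 0.13 against -0.01. At 12 h, 0 were higher and 4 lower (6.35% against 7.19%), and at 24 h 0 were higher and 5 lower (7.94% against 3.66%), with medians of 0.01 and -0.09. The count at 1 h was 3 when the arrays were scaled to the same median.

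Immediate early targets and feedback genes held 3 of the 5 genes higher at 1 h. Of 13 immediate early genes measured, 2 were at 2-fold at 1 h and none lower (median 0.73), and 4 were higher and 1 lower at 6 h (median 0.65). Fos read 364.3 in vehicle, 1757 at 1 h and 883.2 at 6 h, by the brighter of its probe sets. Myc, a growth regulator outside the naming rule and included after its values were seen, read 214.6 in vehicle and 429.8 at 1 h, on the 2-fold threshold. Ier3, an early response gene, was highest at 6 h, at 3423 against 928.1 in vehicle (3.69-fold), and Egr2, a zinc finger factor, was at 636.9 against 251.7 (2.53-fold). Jun, the AP-1 partner of Fos, took another course, at 1488 on the 1 h array against 844.8 in vehicle and then 403.4, 375.4 and 322.5, which is 2.62-fold lower at 24 h. At 6 h Jun was under 2-fold when the arrays were scaled to the same median or quantile normalised.

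Of 5 MAP kinase feedback genes measured, 1 was higher at 1 h and none later (medians 0.04, -0.19, -0.19 and -0.46 from 1 h to 24 h). This is 20.0% at 1 h, against 0.885% of all genes. The gene was Dusp1, a phosphatase of MAP kinases, at 732.3 in vehicle and 1560 at 1 h (2.13-fold). Dusp6, a phosphatase of ERK, and Spry4, a Ras pathway inhibitor, were under 2-fold throughout, with log2 ratios of -0.89 to 0.10 and -0.19 to 0.31. Dusp2 and Spred2 were also under 2-fold from 1 h to 24 h, at -0.38 to 0.04 and -0.70 to -0.04. None of these is named by the rule. Among 9 genes of receptor turnover and inhibition, 1 was higher at 1 h and at 6 h (medians 0.10 and -0.18). This is 11.1% at both times, against 0.885% and 6.57% of all genes. The gene was Socs3, a cytokine signalling suppressor, at 294.2 in vehicle, 759.4 after 1 h, 845.3 after 6 h, 336.5 after 12 h and 158.6 after 24 h. Its second probe set had log2 ratios of 1.02 at 1 h and 1.35 at 6 h.

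Adaptors and the PI3 kinase branch held 5 of the 6 genes lower at 6 h. These 6 are 9.52% of the 63 genes measured, near the 8.66% of all genes that were lower. Of 12 adaptors and proximal effectors measured, 2 were lower at 6 h, Gab1 and Grb7, none was higher, and the median was 0.02. The share lower was 16.7%, against 8.66% of all genes. On the same array, marker signal of some other tissues was also below vehicle, while that of skeletal muscle (1229 against 801) and blood (3467 against 2668) was above it. The 5 pancreas acinus markers summed to 1187 against 4661 in vehicle, which was the highest array for them, and 4 of the 5 were at least 2-fold lower. The 6 adipocyte markers summed to 6552 against 12129, with 2 at least 2-fold lower, and the stromal fibroblast markers to 34516 against 64378. The part of these cells in the lower adaptor and PI3 kinase values was not tested. Gab1, a docking protein between receptors and PI3 kinase, read 1481 in vehicle, 886.5 after 1 h, 211.8 after 6 h, 370.8 after 12 h and 557.1 after 24 h. It was 6.99-fold lower at 6 h, and by its second probe set 2.11-fold lower (log2 ratio -1.08), so the size depends on the probe set. Src, a kinase outside the naming rule, was at least 2.11-fold higher at 1 h, with vehicle under the floor.

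Of 10 genes of the PI3 kinase and STAT branch, 3 were lower at 6 h and none higher (median -0.14). The share lower was 30.0%, against 8.66% of all genes. Pik3ca, the catalytic subunit p110 alpha, read 521.3 in vehicle and 219.0 at 6 h (2.38-fold lower, with a log2 ratio of -0.99 by its second probe set), and Pik3r2, a regulatory subunit, 762.5 and 346.7 (2.20-fold lower). Pik3cd, the catalytic subunit of leukocytes and outside the naming rule, was at least 2.25-fold lower at 6, 12 and 24 h by its brightest probe set. Its second probe set stayed under 2-fold, at log2 ratios of -0.52, -0.21 and -0.33, and with the median of both, or with the floor at the 20th percentile, Pik3cd was not among the genes at 2-fold. Beside it, the 9 macrophage and leukocyte markers summed to 5746 in vehicle and 3608, 4172 and 5403 at these times. Their part in the Pik3cd values was not tested.

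Of 6 Ras-MAP kinase genes measured, 1 was higher at 6 h (16.7%, against 6.57% of all genes) and none lower (median 0.44). This was Ksr1, a scaffold of the cascade, at 307.3 in vehicle and 920.4 at 6 h (2.99-fold higher). Of 8 genes of ligand shedding, none was at 2-fold at 1, 6 or 12 h (medians 0.10, 0.36 and -0.03). At 24 h, 1 was lower, Timp3, an inhibitor of the shedding proteases, at 2035 against 4533 in vehicle (2.23-fold). That is 12.5% of the genes measured in this list, against 3.66% of all genes. The protease Adam17, which releases several of the ligands, lay under the floor at 11.1 to 80.4. Of the other ErbB ligands and Erbb4, 3 were on the array, Btc, Nrg3 and Erbb4, and all lay under the floor, at 1.9 to 70.3. The share in each pathway list rests on few genes, and its difference from the share of all genes was not tested.

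**Figure D5:**
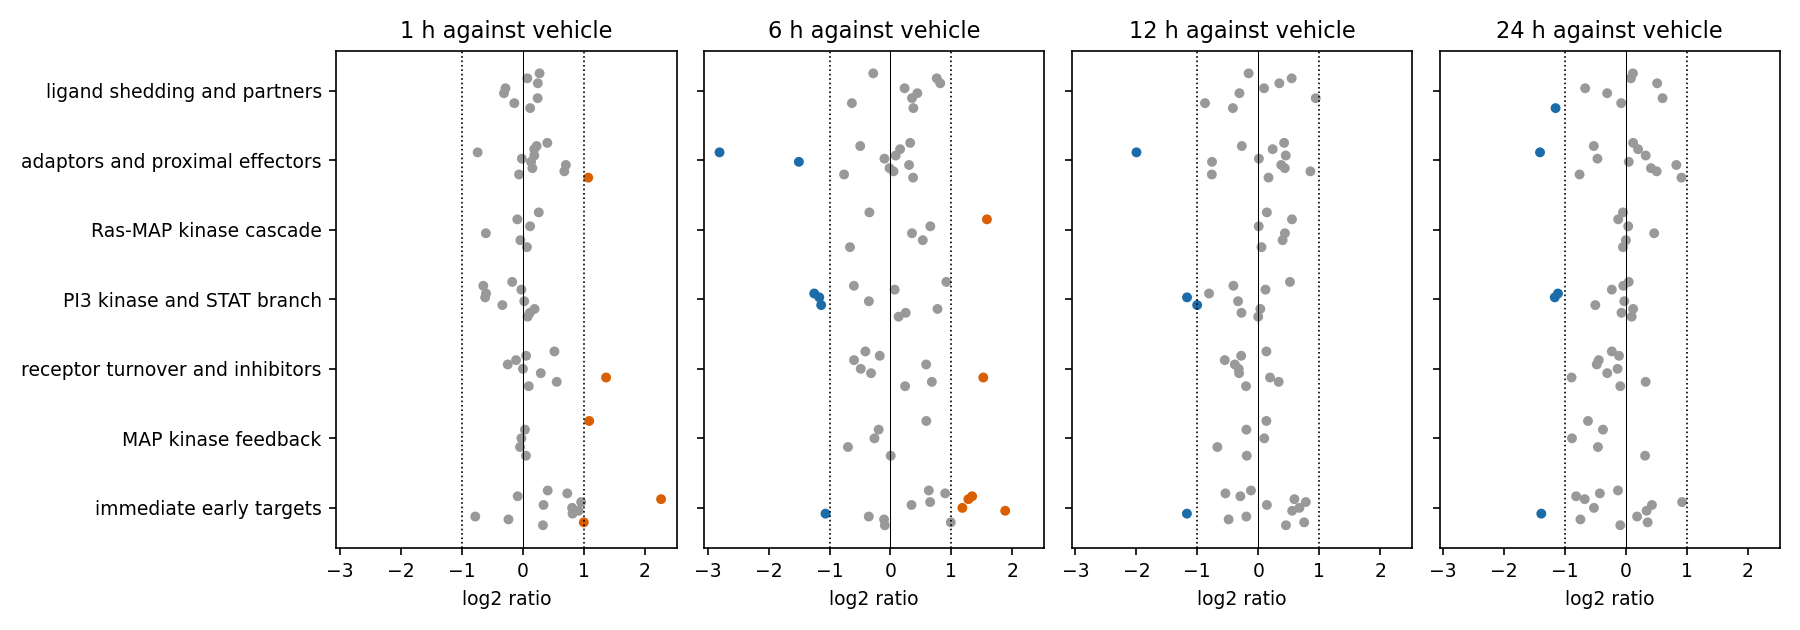
Log2 ratio to vehicle (horizontal axis) at 4 times for the pathway genes that reached the floor, in 7 lists (vertical axis), 1 point per gene. Orange points are at least 2-fold higher and blue points at least 2-fold lower. At 6 h the blue points are Gab1 and Grb7 among adaptors, Pik3ca, Pik3cd and Pik3r2 in the PI3 kinase branch and Jun among immediate early targets.

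On the array labelled 3 h, 6 of the 7 genes could be counted, having reached the floor on at least 1 of the 6 arrays. Of these, 0 were at least 2-fold higher than vehicle and 3 lower (Egfr, Erbb3 and Hbegf), where 10.8% of 6562 genes were higher and 12.3% lower. Errfi1 read 1019 and 871.2, near vehicle. Erbb3 read 153.7 (6.59-fold lower), Hbegf 149.6 (3.50-fold lower), and Egfr 155.5 by its brightest probe set (2.04-fold lower). All 3 values lie close to the floor of 142.8. Egfr was under 2-fold, at a log2 ratio of -0.90, when the arrays were scaled to the same median or quantile normalised. Tgfa read 30.7, and Egf 159.0 by 102774_at, above the floor here alone. On this array the summed skeletal muscle, blood, and macrophage and leukocyte markers, given above, were higher than in vehicle. At least 2-fold lower there were 11 of 13 uterine epithelium markers and 7 of 8 smooth muscle markers. The part of these tissues in the values of the group was not tested.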

How the data were processed

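The authors deposited 1 table of MAS5 signal intensity for 6 arrays (1 per group), linear, per the submitters' processing notes. The MAS5 version, background settings and detection calls are not given in the sources used here. From the values, the authors had scaled each array to a common trimmed mean. Of 12488 probe sets, 66 controls were left out. The annotation gave 1 symbol for 10833 probe sets, several for 396 and none for 1193. The first kind was named, with symbols updated through gene identifiers (10817 matched) to RefSeq GRCm38.p6. Each array was rescaled to the same mean after trimming 2% at each end, values under the 40th percentile (142.8) were raised to it, and log2 was taken. A gene was represented by its brightest probe set over the 6 arrays; for the 7 genes every probe set is given. A fold against a value under the floor is a lower bound ("at least"), and none is given where both lie under it. Differences are log2 ratios of 2 arrays, without tests.

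The members, lists and settings were chosen with earlier results of these data known. Named pathway genes are, per list, up to 4 with the largest log2 ratio among those at 2-fold whose brighter array reached the 60th percentile (352.7), plus the check genes. Named outside this rule are Myc, Src, Pik3cd, Dusp2, Dusp6, Spry4, Spred2, Adam17, Btc, Nrg3 and Erbb4. Promoter sequences are RefSeq's. Python 3.11.15, pandas 2.3.3, NumPy 2.4.6 and SciPy 1.17.1 were used, and the log2 step was tested on simulated data. The alternatives were 2 scalings, 2 floors, the median of a gene's probe sets, another reference, and leaving out the array labelled 3 h, the last added after seeing the data. The labels' housing text implies a greater age than their stated 10 to 11 weeks. The number of arrays limits the precision.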

Additional observations from a re-analysis of the deposited data

Results flagged for a closer look

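Signals outside the series of 5 arrays stood out on the array labelled 3 h. The 8 skeletal muscle markers summed to 61191 signal units there, against 801 in vehicle. The 3 blood markers summed to 33692, against 2668 in vehicle. Egf read 159.0 by 102774_at, above the floor of 142.8, against 16.9 in vehicle, while its other probe set read 17.0 on that array. With 1 array per group, no group was large enough to look for an outlying array, and differences between times were not tested.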

How the results depend on the processing

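Errfi1 was the one gene of the group at 2-fold at 1 h under every alternative that gives a value there, with log2 ratios of 2.07 to 2.29 (93975_at) and 1.86 to 2.06 (93974_at). Erbb3 at 6 h ranged from -1.58 to -1.48 on its bright probe set. No ratio at 2-fold changed sign. With no replicates, a ratio was counted as moved at 1.5-fold or more, and 13 of 196 ratios moved. A count was labelled moved when its total changed by more than 1.5-fold, or to or from 0, and 14 of 66 counts moved. This label does not follow which genes were called. At 6 h under the same median, the pathway total was 13 against 12, while Jun dropped out and Akt1 and Myc entered. With vehicle and 1 h averaged as the reference, the genes of the group at 2-fold were 1 at 6 h (Erbb3), 1 at 12 h and 1 at 24 h (Errfi1, lower at both), where vehicle gave 2, 0 and 0. Errfi1 then stood at 0.36 at 6 h, -1.04 at 12 h and -1.11 at 24 h, by construction, since its 1 h array was high. With the median of a gene's probe sets the group count at 6 h was 1 (Errfi1). On the array labelled 3 h it was 5 with the floor at the 20th percentile and 1 with the floor at the 60th, against 3. There it was 2 under the same median, under quantile normalisation and with the median of probe sets. For the other pathway genes, the count at 1 h was 3 under the same median, under quantile normalisation and with the floor at the 60th percentile, against 5. At 6 h it was 7 with the mean reference, against 12. At 12 h it was 8 with the floor at the 20th percentile and 2 with the mean reference, against 4. At 24 h it was 3 with the floor at the 60th percentile and 2 with the median of probe sets, against 5. A floor changes how many genes can be called, and beyond that the cause was not tested. Leaving out the array labelled 3 h, an alternative added after seeing the data, moved none of these counts or ratios. No replicate could be left out, as each group has 1 array. No paired analysis was possible because each group has 1 array and the labels give no replicate numbers. Signals near the floor, as for Tgfa and Egfr, limit what the arrays resolve: with the floor at the 60th percentile, the log2 ratio of Egfr on the array labelled 3 h was 0.00.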
